A study of Mus musculus with 12 samples.

Results

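The cells described here were a rare group in c-Kit-enriched mouse bone marrow that held RNA of cytotoxic lymphocyte genes. Members were selected on their measured counts: a cell was kept when it had at least 1 UMI (unique molecular identifier, the tag of 1 captured RNA molecule) in at least 2 of 5 rule genes, namely Ccl5, Klrd1, Gzma, Cd3g and Cd3e. A further gene that the rule names, Trbc2, has no column in the tables used here and was not analysed. The rule found 130 members among 32701 cells, which is 0.398% (95% exact binomial interval 0.332 to 0.472%). Intervals here cover counting error only.

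Bone marrow c-Kit+ cells of 4 genotypes were profiled by droplet 3′ single-cell RNA sequencing at 3 time points after pIpC, which induces interferon and thereby the Mx1-Cre recombinase. WT mice lacked Mx1-Cre, E2-KO mice carried Mx1-Cre with Ezh2 f/f, the G12D mice carried Mx1-Cre with 1 inducible NRas G12D allele, and the G12D/E2-KO mice carried all of these. Mice of all 4 groups were 8 to 12 weeks old at injection by the labels (the study's methods give a younger age) and received pIpC 5 times, and cells were taken 2 weeks (T1), 2 months (T2) or 4 months (T3) later. There was 1 library for each genotype and time point, so a genotype had 3 libraries that also differed in time. The sources used here do not say how many mice a library holds. Mx1-Cre acts in hematopoietic and other interferon-responsive cells and was absent from WT mice, so its own presence cannot be told apart from the difference between WT and any mutant group.

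Natural killer (NK) cells are innate lymphocytes that mature in the bone marrow. They read MHC class I on other cells through lectin-like receptors encoded by the Klr genes, and they kill with granzymes delivered from granules. T cells recognise peptides through an antigen receptor that signals through the CD3 chains, and activated T cells share with NK cells the chemokine Ccl5, granzymes and several Klr receptors. Ezh2 is the catalytic subunit of Polycomb repressive complex 2, which methylates histone H3, and NRas is a small GTPase upstream of the ERK pathway.

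The 12 libraries held 12.6 to 23.6 M UMIs each, with a median of 3780.5 to 6975.5 UMIs per cell. Of 5648 cells in the deposited G12D T1 table, 2896 (51.3%) matched a cell of the G12D/E2-KO T1 table and were counted in the latter only, and 23 of them met the rule. Ezh2 over all cells was 103 to 133 CPM (UMIs of the gene per 1000000 UMIs of the same cells) in the WT libraries and 81.7 to 103 CPM in those of G12D. It was 27.7 to 34.6 CPM in those of E2-KO and 20.7 to 25.3 CPM in those of G12D/E2-KO, so the Ezh2 f/f groups lay below the others without overlap. Xist, which is transcribed from the inactive X chromosome, was at 1300 to 1360 CPM in the T3 libraries of WT, E2-KO and G12D and at 0.608 CPM or less in the other 9, so sex was not balanced over time points or, at T3, over genotypes.

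The label given to these cells, T and NK lymphoid cells, was checked against marker genes. The NK side was present. Of 18 NK genes outside the rule, 17 had a log2 fold of 1 or more in members over all other cells (CPM plus 5), with a median of 4.45, beside 2.06% of all 27998 genes. As the rule used this contrast, nothing more is read from such counts. In all, 96 members (73.8%) held at least 2 of the 17 NK genes other than Nkg7. The T cell side was mixed. The study's flow cytometry methods name CD2, CD3, CD5 and CD8 antibodies against lineage-positive cells, a gate that would remove T cells, but the labels give only magnetic c-Kit enrichment for these libraries. Of 17 T cell genes outside the rule, 9 had a log2 fold of 1 or more (median 1.39), among them Cd3d, which was held by 22.3% of members. The genes most particular to T cells were rare. Of 8 such genes, a list made after the data were seen, Cd8b1 and Themis had 0 UMIs in members, Cd4, Cd6 and Foxp3 had 1 UMI each, Cd8a had 2, Cd5 had 3 and Cd3e had 9 UMIs in 4 members. Together, 6 members (4.62%) held a UMI in any of these 8 genes, against 0.924% of the other cells, and 2 members held at least 2 of them. Cd3e is also a rule gene, so these shares follow in part from the rule. Of the 17 T cell genes outside the rule, at least 2 were held by 46.9% of members and by 3.2% of other cells. The antigen receptor constant genes Trac, Trbc1 and Trdc were not analysed here. The cells are therefore called members below, by their rule, and the 96 cells with 2 or more NK genes are called NK-gene members.

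**Figure D1:**
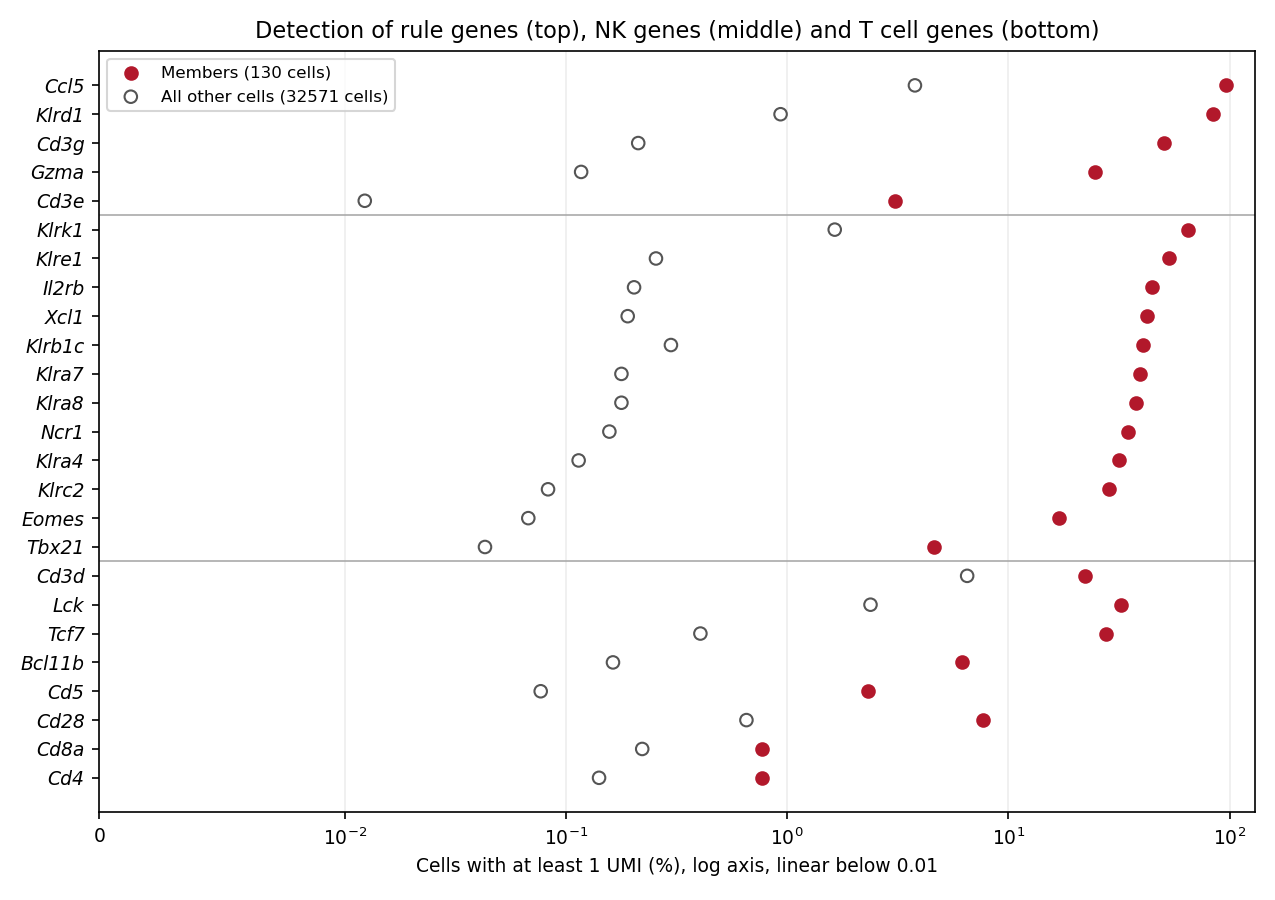
Share of cells with at least 1 UMI (x axis, percent, log scale that is linear below 0.01) for rule genes, NK genes and T cell genes, in the 130 members (filled) and the 32571 other cells (open). Klrk1, Klre1 and the other NK genes shown are held by 4.62 to 64.6% of members and by 1.64% or less of other cells. Nkg7 and Prf1 are not shown. Cd4 and Cd8a are each held by 0.769% of members.

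Because the rule used UMIs of the same cells, every comparison of members with other cells is a description without a test. Ccl5, a chemokine of activated T and NK cells, had 1 or more UMIs in 96.2% of members and 3.78% of other cells, with a median of 12 and a maximum of 59 UMIs in a member, while the highest other cell held 105. Klrd1, the CD94 chain that pairs with NKG2 receptors, was held by 84.6% against 0.933%. Gzma, granzyme A, was held by 24.6% against 0.117%. Cd3g, a chain of the CD3 complex, was held by 50.8% against 0.212%. Cd3e, the chain most used to define T cells, was held by 3.08% against 0.0123%. The most common combination was Ccl5 with Klrd1 alone (45 members), followed by Ccl5, Klrd1 and Cd3g (38 members).

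Free RNA in droplets was gauged in 9096 granule-rich cells (at least 20% of UMIs from 4 neutrophil granule genes, median 4480 UMIs) and 2306 globin-rich cells (at least 20% from 4 globin genes, median 3597 UMIs), which should lack these transcripts. Klrd1 was held by 0.429% of granule-rich and 0.304% of globin-rich cells, Cd3g by 0.187% and 0.173%, and Ccl5 by 3.05% and 2.91%. With each cell thinned to 1438 UMIs, Klrd1 was held by 47.7% of members and 0.132% of granule-rich cells, and Cd3g by 36.9% and 0.077%. These are rule genes, on which members were selected. Of genes outside the rule, Klrk1 was held by 46.2% of thinned members and 0.055% of thinned granule-rich cells, and Klre1 by 33.8% and 0.044%.

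The values on either side of the rule's threshold were as follows. Of 1645 cells with exactly 1 rule gene, which are outside, 1.58% held 2 or more of the 17 NK genes. Of the 65 members with exactly 2 rule genes, 53.8% did. Of the 53 members with 3 rule genes 92.5% did, and of the 12 with 4 rule genes 100% did.

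NK receptors that the rule did not use ranked next to the rule genes. In a ranking of genes with at least 50 UMIs in members and a higher level in at least 10 of 12 libraries, 9 of the top 25 were Klr genes (among them the rule gene Klrd1), all within 1 stretch of chromosome 6 (128778485 to 130233322, mm10), the natural killer gene complex. Klrk1, the activating receptor NKG2D, was at 340 CPM in members and 2.86 CPM in other cells (log2 fold 5.46), and was held by 64.6% of members against 1.64%. Of 355 other cells that held all 4 MHC class II genes, 17.7% held Klrk1 and 11.5% held Klrd1. Klre1, a lectin-like receptor of the same cluster, had a log2 fold of 5.50 and was held by 53.1% against 0.255%. Klrb1c, which encodes NK1.1, had a log2 fold of 4.75 and was held by 40.8%. Ncr1, the activating receptor NKp46 on chromosome 7, had a log2 fold of 4.70, was held by 34.6% against 0.157%, and was higher in 9 of 12 libraries. In the other 3 libraries no member held it.

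The Ly49 receptors, encoded by the Klra genes, bind MHC class I or related ligands and are switched on in varied sets from cell to cell. Klra8 had a log2 fold of 5.91, Klra7 5.19 and Klra4 4.99, and in all 7 of 9 Klra genes had a log2 fold of 1 or more. Among the 96 NK-gene members 22 held no Klra gene, 12 held 1, 22 held 2, 18 held 3, and 22 held 4 to 6. Several Klra genes are among the 17 NK genes by which these 96 were chosen, so the counts describe that choice too. Klra8 was held by 32.1% of the 28 NK-gene members with Gzma and by 58.8% of the 68 without it. The Klra genes are related copies, so reads may be lost or misassigned between them and the value of any 1 of them is uncertain.

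Upstream sequence of 6 of these genes is shown because they stand for the granule, receptor and CD3 genes that set the members apart, and because Klra4 was called between genotypes below. Each is the 250 bases before a RefSeq start in build GRCm38.p6, 5′ to 3′ on the gene's strand: Gzma chr13:113100982-113101231 (minus), Ncr1 chr7:4337465-4337714 (plus), Klrk1 chr6:129623865-129624114 (minus), Cd3g chr9:44980432-44980681 (minus), Klra8 chr6:130129899-130130148 (minus) and Klra4 chr6:130067272-130067521 (minus). The full extents of Klrk1 and Klra4 reach to 129623903 and 130067301, so the last bases of these 2 windows lie inside the gene. Distances are counted from the start used. Capitals mark matches on either strand to the core letters AGGTGT of T-box factors such as Eomes and T-bet, TGTGGT of Runx factors or GGAAGT of Ets factors, and none of the marked matches overlap.
Gzma: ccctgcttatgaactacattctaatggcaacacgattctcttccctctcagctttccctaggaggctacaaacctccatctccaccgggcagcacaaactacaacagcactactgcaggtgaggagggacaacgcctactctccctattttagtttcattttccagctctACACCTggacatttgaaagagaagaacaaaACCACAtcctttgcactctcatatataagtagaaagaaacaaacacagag
Ncr1: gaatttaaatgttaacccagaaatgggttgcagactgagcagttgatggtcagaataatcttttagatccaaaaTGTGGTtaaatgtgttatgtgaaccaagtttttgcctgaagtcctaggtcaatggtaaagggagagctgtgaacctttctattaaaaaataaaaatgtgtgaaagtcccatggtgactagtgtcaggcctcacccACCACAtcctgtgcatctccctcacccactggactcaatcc
Klrk1: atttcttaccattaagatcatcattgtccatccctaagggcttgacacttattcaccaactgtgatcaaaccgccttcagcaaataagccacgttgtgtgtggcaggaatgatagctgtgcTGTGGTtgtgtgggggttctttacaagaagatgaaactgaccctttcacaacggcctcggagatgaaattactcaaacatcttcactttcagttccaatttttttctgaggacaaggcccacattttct
Cd3g: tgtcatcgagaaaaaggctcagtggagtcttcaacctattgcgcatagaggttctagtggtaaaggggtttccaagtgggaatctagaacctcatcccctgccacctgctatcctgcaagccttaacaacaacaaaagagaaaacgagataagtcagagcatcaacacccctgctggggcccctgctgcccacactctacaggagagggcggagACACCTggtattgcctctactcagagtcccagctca
Klra8: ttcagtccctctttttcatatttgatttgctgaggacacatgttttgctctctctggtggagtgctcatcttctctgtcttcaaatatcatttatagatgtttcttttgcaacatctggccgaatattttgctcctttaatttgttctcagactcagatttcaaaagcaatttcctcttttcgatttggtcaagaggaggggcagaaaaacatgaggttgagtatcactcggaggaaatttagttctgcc
Klra4: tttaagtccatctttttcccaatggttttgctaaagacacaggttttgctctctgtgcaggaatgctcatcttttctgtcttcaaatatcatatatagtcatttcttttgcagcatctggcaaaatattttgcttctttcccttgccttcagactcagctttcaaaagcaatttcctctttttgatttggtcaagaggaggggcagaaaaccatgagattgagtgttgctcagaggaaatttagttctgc
Gzma held a T-box match 80 bases and a Runx match 50 bases before the start, Ncr1 held Runx matches at 176 and 41 bases, Klrk1 held a Runx match at 129 bases, and Cd3g held a T-box match at 36 bases. No marked letters occur in the Klra8 and Klra4 windows, which are 84.5% identical to each other (212 of 251 aligned columns), whereas Klra4 and Klra7 are 44.0% identical. That is no more than Klrk1 with Klra4 (45.5%) or with Klra7 (49.3%). Of the 25 leading genes 20 had a window. The T-box letters occurred in 10.0% of these against 12.0% of the windows of all 27025 genes, the Runx letters in 35.0% against 14.2%, and the Ets letters in 25.0% against 20.0%. These are counts of letters, with no test, and a match is not shown to be a site.

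The granule and chemokine genes were uneven. Of 15 cytotoxic effector genes 10 had a log2 fold of 1 or more and none of -1 or less (median 1.46). Xcl1, the chemokine lymphotactin that draws cross-presenting dendritic cells, had a log2 fold of 5.43 and was held by 42.3% of members. Ctsw, a cysteine protease of cytotoxic lymphocytes, had 3.91. Nkg7, a granule membrane protein, had 1.32, and 42.8% of the other cells held it. Gzmb was held by 5.38% of members, and Prf1, which encodes perforin, had 0 UMIs in members and 1 UMI in all cells. By genotype, 3 UMIs in the summed members, the limit that a count of 0 allows, would be 8.85 CPM in G12D/E2-KO and 38.5 CPM in E2-KO. With 1 UMI in 32701 cells, whether these counts could detect Prf1 was not tested. The 0 is therefore not read as absence of perforin RNA.

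Among 19 antigen receptor signalling genes 11 had a log2 fold of 1 or more (median 1.76), beside 2.06% of all genes. The kinase Lck had a log2 fold of 3.68, the adaptor Skap1 3.71, and the SLAM adaptor Sh2d1a 3.51, while Ptprc, which encodes CD45, had 2.49 and was higher in all 12 libraries. Lck, Fyn, Skap1 and the SLAM adaptors act in NK cells too. Among the T cell genes Cd3d had a log2 fold of 2.39, Bcl11b 1.92 and Cd28 1.84.

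All 8 Gimap genes, small GTPases of lymphocyte survival encoded in 1 cluster on chromosome 6, had a log2 fold of 1 or more (median 3.11), led by Gimap4 (5.08) and Gimap3 (4.52). Gimap4 was held by 55.4% of members and by 10.6% of 2252 other cells with at least 3 B lymphoid genes. Among 18 lymphoid transcription factors 11 had a log2 fold of 1 or more (median 1.33). These 18 summed to 1440 CPM in members, but also to 1420 CPM in the 355 other cells with all 4 MHC class II genes. Id2, which blocks E proteins and is required for NK cells, was at 642 CPM in members and 117 in other cells. Tcf7 had a log2 fold of 3.75, Ets1 1.90 and Runx3 1.06. The T-box genes of the NK lineage were sparse: Eomes had 25 UMIs in 16.9% of members and Tbx21 was held by 4.62%.

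Of 14 cytokine receptor genes 10 had a log2 fold of 1 or more (median 1.25). Il2rb, the chain that NK cells use for interleukin 15, had 4.91 and was held by 44.6% of members. Il18r1 had 2.13 and Il2rg 1.94. Kit itself was held by 26.9% of members and 25.1% of other cells, and by 8.46% and 6.95% after thinning, so the members' c-Kit RNA differed little from that of the cells they were enriched with. Among 17 homing genes 8 did so (median 0.59), with Ccr2 at 3.08 (higher in 12 of 12 libraries) and Cxcr3 at 2.60. Of 10 inhibitory and costimulatory receptors 5 did so, with Cd160 at 3.82, while Pdcd1, Havcr2, Ctla4 and Tigit had 0 UMIs.

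Several other programs were lower in members or lay within both limits, and some were raised. Of 10 dendritic genes 6 had a log2 fold of 1 or more (median 1.5), beside 2.06% of all genes. The 10 genes summed to 1430 CPM in NK-gene members, 6060 in the remaining members and 1010 in other cells. All 4 MHC class II genes, a list made after the data were seen, had a log2 fold of 1 or more (median 2.74). All 8 erythroid genes had a log2 fold of -1 or less (median -1.64), beside 0.918% of all genes, as had 7 of 8 late granulocyte genes (median -1.53). None of 16 proliferation genes passed either limit (median -0.36), and Mki67 was held by 12.3% of thinned members against 21.1% of thinned other cells. Of 9 genes for group 2 innate lymphoid cells 3 had a log2 fold of 1 or more and none of -1 or less (median 0). Il5, Il13, Areg and Klrg1 had 0 UMIs. At least 2 of the 9 were held by 4.62% of members and 3.37% of other cells. Of 10 MHC class I genes 5 reached a log2 fold of 1 (median 1.09), with H2-K1 at 1.52 and H2-Q7 at 2.06, the latter uncertain because H2-Q genes are near-identical copies. These 10 genes summed to 5440 CPM in members and 5830 CPM in the 355 other cells with all 4 MHC class II genes. Among genes at 100 CPM or more in the other cells, the lowest fold was that of Jchain (-4.00), which joins immunoglobulin chains, followed by Igll1 (-2.24), a chain of the pre-B receptor. Jchain was held by 5.38% of members and 7.36% of other cells, so the shares of cells differed far less than the fold.

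The 34 members (26.2%) with fewer than 2 of the 17 NK genes had a median of 6316.5 UMIs, against 2640 in the NK-gene members. Of these 34, 94.1% held Cst3, 41.2% held Irf8 and 38.2% held Flt3. In the NK-gene members these shares were 54.2, 16.7 and 5.21%, and in the other cells, with a median of 5568 UMIs, 77.1, 17.1 and 5.73%. All 4 MHC class II genes were held by 5 of the 34 and by 3 of the 96 NK-gene members. In G12D/E2-KO there were 26 of the 34, and 14 of the 28 members of the T1 library were of this kind. No further doublet caller was run, since the study removed predicted doublets before deposit, and whether doublets contribute to these 34 was not tested.

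**Figure D2:**
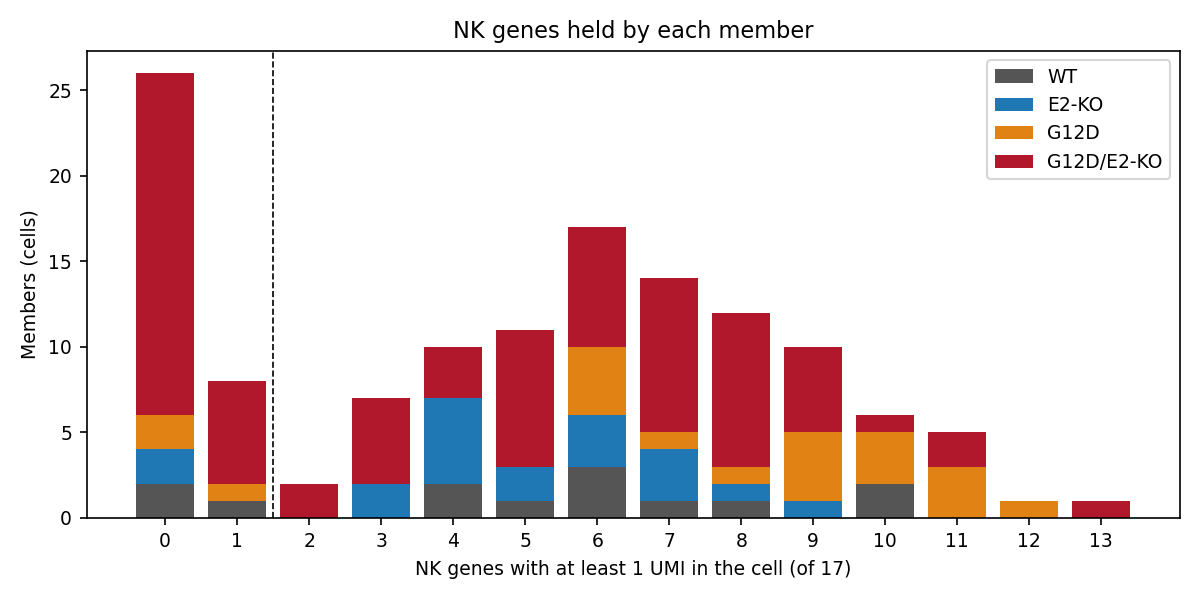
Number of members (y axis) by how many of 17 NK genes held a UMI in the cell (x axis), coloured by genotype; the dashed line marks the limit of 2. The 34 members to the left of the line are mostly from G12D/E2-KO (26), and the 96 to the right have a median of 7 NK genes.

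Pooled over time points, members were 13 of 7583 WT cells (0.171%, interval 0.0913 to 0.293%), 19 of 7975 E2-KO cells (0.238%, 0.143 to 0.372%), 20 of 7715 G12D cells (0.259%, 0.158 to 0.400%) and 78 of 9428 G12D/E2-KO cells (0.827%, 0.654 to 1.03%). G12D/E2-KO thus held 60% of the members and 28.8% of the cells. Cells of 1 library are not independent samples, so libraries are compared below.

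By library at T1, T2 and T3, the share was 0.255, 0.141 and 0.126% in WT (mean 0.174 ± 0.071%, SD, n = 3). It was 0.123, 0.204 and 0.387% in E2-KO (0.238 ± 0.135%). It was 0.109, 0.0829 and 0.588% in G12D (0.26 ± 0.284%). It was 0.92, 1.06 and 0.382% in G12D/E2-KO (0.788 ± 0.359%). All 3 G12D/E2-KO libraries lay above all 3 WT libraries, but the G12D/E2-KO T3 library lay below G12D T3 and E2-KO T3. At T3 sex differed too, as Xist was at 0.13 CPM in G12D/E2-KO and at 1300 to 1360 CPM in the other genotypes. Time point and library cannot be told apart, since each library is the only one of its kind.

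**Figure D3:**
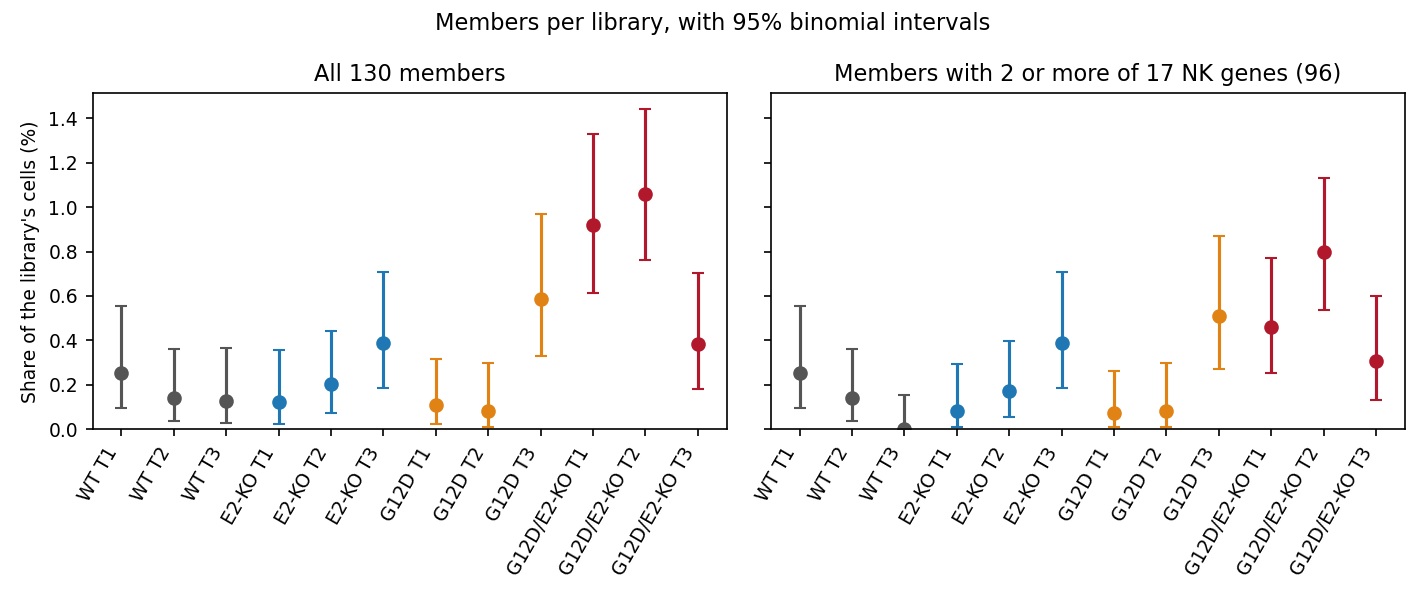
Share of each library's cells that were members (y axis, percent; left, all 130; right, the 96 NK-gene members), with 95% exact binomial intervals, for 12 libraries coloured by genotype. G12D/E2-KO T1 and T2 are highest on the left at 0.92 and 1.06%, and WT T3 has no NK-gene member.

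The design asks for the effect of Ezh2 loss (E2-KO minus WT, and G12D/E2-KO minus G12D, within a time point), of NRas G12D (the corresponding pairs) and of their interaction. In a two-sided exact sign-flip permutation test over 6 pairs, the Ezh2 effect was 0.296 percentage points (SD 0.494), positive in 4 of 6 pairs (exact p = 0.281, adjusted over 6 share tests 0.422). The G12D effect was 0.318 points (SD 0.448), positive in 3 of 6 pairs (exact p = 0.25, adjusted 0.422). The interaction was 0.464 points (SD 0.806), positive in 2 of 3 time points (exact permutation p = 0.5, and 0.25 is the smallest that 3 values allow). None passed the threshold. The smallest p that 6 pairs allow is 0.0312, so after adjustment over 6 tests 1 effect by itself could not have passed. The result is therefore not read as absence of an effect. The Ezh2 effect was 0.159 points without G12D T2 or G12D/E2-KO T2, the G12D effect 0.21 points without E2-KO T2 or G12D/E2-KO T2, and the interaction 0.224 points without a T1 library and 0.93 points without a T3 library. Among NK-gene members these effects were 0.19, 0.199 and 0.218 points, and after thinning to 1438 UMIs 0.163, 0.234 and 0.215 points.

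Depth moved with genotype in these cells. The median UMI number of members, divided by that of their library, was 1.12 to 1.39 in the 3 WT libraries and 0.401 to 0.892 in the 9 mutant libraries. To compare genotypes at equal depth, every cell was thinned to 1438 UMIs and the rule applied again. It then kept 6 WT (0.0791%), 11 E2-KO (0.138%), 16 G12D (0.207%) and 48 G12D/E2-KO cells (0.509%), the same pooled order as before. By library, G12D T3 (0.47%) lay above G12D/E2-KO T1 (0.427%) and T3 (0.267%), and below G12D/E2-KO T2 (0.743%). G12D T3 held 12 of the 16 G12D cells, and E2-KO T3 held 7 of the 11 E2-KO cells. The G12D/E2-KO libraries all lay above those of WT (0.0352 to 0.17%). Counting only NK-gene members, the pooled shares were 0.132, 0.213, 0.22 and 0.552%.

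Cd3g was detected in few WT members. It was held by 1 of 13 WT members (7.69%), 11 of 19 E2-KO members (57.9%), 10 of 20 G12D members (50%) and 44 of 78 G12D/E2-KO members (56.4%). After thinning the shares were 0, 36.8, 35.0 and 43.6%. Over all members Cd3g was held by 66.2% of those below the median depth and by 35.4% of those above it, and WT members were the deepest relative to their libraries. By library, Cd3g was at 48.6, 0 and 0 CPM in WT members at T1, T2 and T3, at 95.6, 185 and 538 in E2-KO, at 671, 0 and 276 in G12D, and at 132, 380 and 722 in G12D/E2-KO. All 6 Ezh2 f/f libraries and G12D T1 and T3 lay above the WT libraries, while G12D T2, with 2 members, lay at 0 with WT. The E2-KO T1 value rests on 1 UMI. Cd3g is a rule gene that decided membership, so these levels are a description of selected cells.

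Members with no UMI in Cd3g or Cd3e made up 92.3% of WT, 42.1% of E2-KO, 50% of G12D and 43.6% of G12D/E2-KO members. By library the share was 83.3, 100 and 100% in WT, 66.7, 50 and 30% in E2-KO, 33.3, 100 and 46.7% in G12D, and 50, 42.5 and 30% in G12D/E2-KO. The mean difference with Ezh2 loss was -32.4 points (SD 32.4, higher in 1 of 6 pairs) and with NRas G12D -21.2 points (SD 24.4, higher in 0 of 6 pairs), and the interaction was 26.4 points (SD 31.0). Cd3g and Cd3e are rule genes that decided membership, so these values are a description, and their tests, which were among the 6 share tests and did not pass, are not read.

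NK-gene members were also described by Cd3g. As Cd3g and Gzma are rule genes, and Xcl1 and Klra8 are among the 17 NK genes that define these cells, the shares are a description of selected cells. Xcl1 was held by 67.9% of the 56 NK-gene members with Cd3g and by 42.5% of the 40 without it, Klra8 by 50% and 52.5%, and Gzma by 23.2% and 37.5%. The members with Cd3g had a median of 2075 UMIs and those without it 3846, and the differences were not tested.

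Levels of other genes in the summed members of each genotype are given with 95% Poisson intervals. Klrk1 was at 286 CPM (190 to 413) in WT members, 218 (127 to 349) in E2-KO members, 660 (499 to 857) in G12D members and 304 (248 to 369) in G12D/E2-KO members. Of the 28 WT UMIs 22 were in the T1 library (534 CPM, against 158 at T2 and 0 at T3). Xcl1 was at 91.9, 141, 424 and 230 CPM in the same order. Of the 78 G12D/E2-KO members 26 were no NK-gene members. In NK-gene members alone Klrk1 was at 353, 276, 845 and 612 CPM and Xcl1 at 114, 179, 553 and 492 CPM. Gzma, a rule gene that decided membership, was at 480, 180, 283 and 212 CPM, which is a description only. In WT 38 of its 47 UMIs were in the T1 library, and in G12D all 24 were in the T3 library. In G12D/E2-KO, 1 member of the T1 library held 47 of the 72 UMIs, so that level is largely 1 cell. In NK-gene members alone Gzma was at 568, 211, 369 and 442 CPM. Ezh2 was at 143 CPM (78.1 to 240) in WT members, 25.6 (3.11 to 92.6) in E2-KO members, 47.2 (12.9 to 121) in G12D members and 32.5 (16.2 to 58.1) in G12D/E2-KO members, on 14, 2, 4 and 11 UMIs. The interval of G12D/E2-KO did not overlap that of WT, while those of E2-KO and G12D did. By library, Ezh2 in G12D T2 members was at 162 CPM on 1 UMI, above WT T1 (97.1) and WT T2 (158).

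Bmi1, a subunit of Polycomb repressive complex 1, was at 30.6, 76.9, 23.6 and 73.8 CPM in members of the same order, beside 19.2, 76.3, 16.9 and 76.7 CPM in all other cells. Arf5, a small GTPase of vesicle traffic, was at 347, 128, 318 and 130 CPM in members, beside 408, 176, 373 and 157 in other cells. By library, Arf5 in WT members was at 510, 289 and 107 CPM at T1, T2 and T3. WT T3, on 2 UMIs, thus lay among the Ezh2 f/f libraries (95.6 to 149 CPM). Both genes had been noticed over all cells in an earlier analysis of these data, so their levels in members are not independent evidence. Ezh2, Nras, Pttg1, Gkap1, Gdpd3 and Cap1 had been noticed there too, and not all of them tracked the other cells. Pttg1 was at 0, 115 and 0 CPM in E2-KO members at T1, T2 and T3, beside 215, 202 and 159 in other cells. In G12D/E2-KO members Pttg1 was at 153, 124 and 34.4 CPM, beside 193, 159 and 130. Gkap1 had 0 UMIs in E2-KO members of each library, beside 27.6 to 33.9 CPM in other cells. These levels rest on few UMIs. In the test across genes described next, Arf5 had a log2 Ezh2 effect of -1.53 (edgeR adjusted p = 1).

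**Figure D4:**
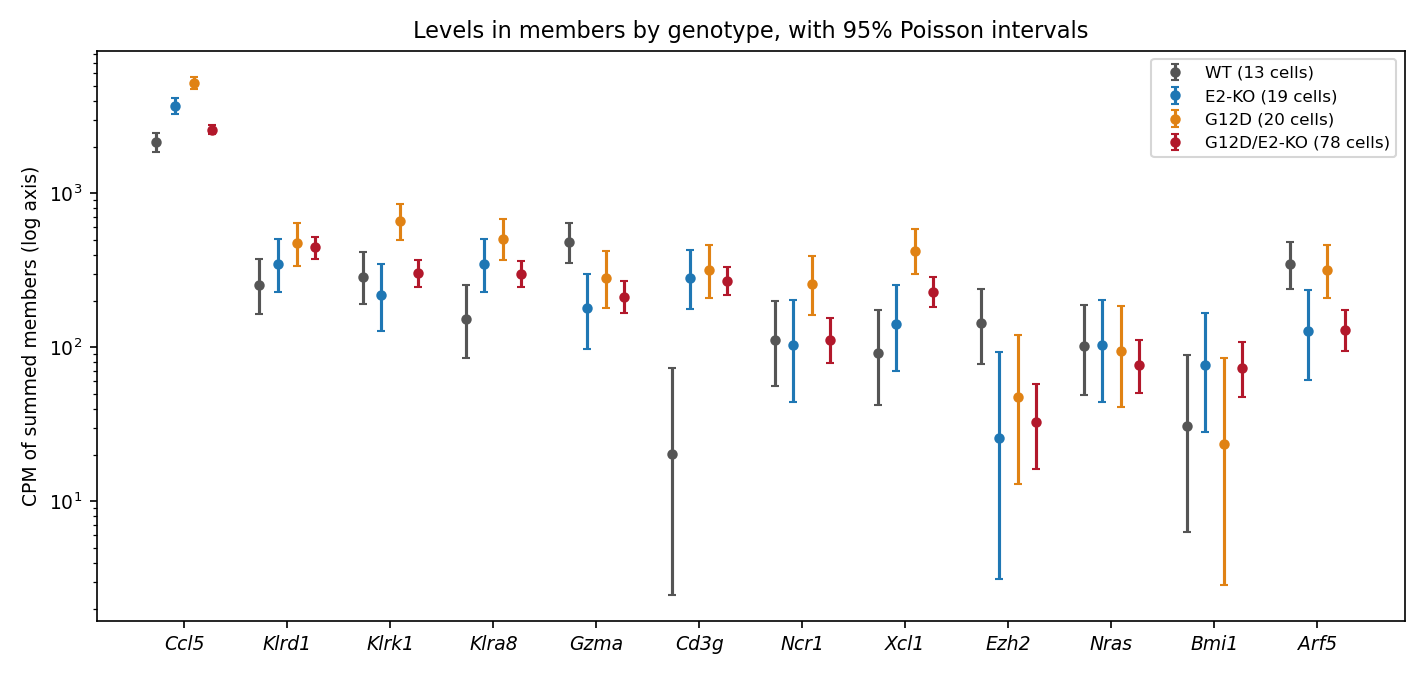
Level of 12 genes (y axis, CPM of summed members, log scale) in WT (13 cells), E2-KO (19), G12D (20) and G12D/E2-KO (78), with 95% Poisson intervals that cover counting error only. Ccl5, Klrd1, Gzma and Cd3g are rule genes that decided membership, so their levels are a description. Cd3g is lowest in WT at 20.4 CPM against 271 to 318 in the mutants. Summed over libraries, Arf5 is lower in both Ezh2 f/f groups than in WT, though not against WT T3 alone. The interval of Ezh2 in G12D/E2-KO lies below that in WT.

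Gene changes between genotypes were tested on UMIs summed over the members of a library with edgeR's quasi-likelihood test, with time point as a block, in the 7 libraries that held at least 5 members (WT T1, E2-KO T2 and T3, G12D T3 and all 3 of G12D/E2-KO). This left 1 residual degree of freedom, and the WT and G12D groups had 1 library each, assumed to vary like the others. Of these libraries only E2-KO T3 and G12D T3 had high Xist (1350 and 1360 CPM). Sex was not in the model, so differences from the 1 G12D library cannot be told apart from sex. Of 977 genes tested, the Ezh2 effect called 0 higher (0.0%) and 1 lower (0.102%), with 27 genes at an unadjusted p under 0.05. The G12D effect called 3 higher (0.307%) and 0 lower (0.0%), with 19 genes at an unadjusted p under 0.05. The interaction, the Ezh2 effect with NRas G12D minus that without it, called 3 higher (0.307%) and 5 lower (0.512%), with 35 genes at an unadjusted p under 0.05.

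None of 11 NK genes tested was called for the Ezh2 or the G12D effect. Their log2 Ezh2 effects were -2.61 to -0.34 and their G12D effects -1.85 to 0.79. With all 12 libraries, 8 of these NK genes were tested and had Ezh2 effects of -0.54 to 0.75 and G12D effects of 0.15 to 1.30, so the directions depended on the libraries used. The log2 Ezh2 effect of Klrk1 was -1.10 in the 7 libraries (edgeR adjusted p = 1) and -0.54 in all 12 (adjusted p = 0.999). The rule genes chose the members, so their differences between genotypes are conditioned on that choice and are given as values only. Their log2 Ezh2 effect was -0.43 for Ccl5, -0.06 for Klrd1, -0.97 for Gzma and 1.08 for Cd3g in the 7 libraries, and 0.04, 0.19, -0.47 and 1.92 in all 12, so the sign turned for Ccl5 and Klrd1. Klra4 was the 1 NK gene called, for the interaction only (log2 6.46, edgeR adjusted p = 0.0192). In the 7 libraries of this fit it had 15 UMIs in WT T1, of which 9 were in 1 cell. It had 1 UMI in E2-KO T2, 7 in E2-KO T3 and 21 in G12D T3, and the 3 double-mutant libraries held 3, 30 and 10. In NK-gene members its interaction was 5.24 (edgeR adjusted p = 0.426) and with all 12 libraries 0.71 (adjusted p = 1). No gene was called for the interaction in DESeq2, with no replicate block, with the tables as deposited or with all 12 libraries.

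The genes called for the Ezh2 and the G12D effect in the 7 libraries were hemoglobins. These calls rest on 1 residual degree of freedom, and with all 12 libraries, with no replicate block and in DESeq2 no gene was called for either effect. Hbb-bs, a beta chain, had a log2 Ezh2 effect of -1.95 (edgeR adjusted p = 0.0433). The log2 G12D effect was 2.68 for Hbb-bt (edgeR adjusted p = 0.00621), 2.43 for the alpha chain Hba-a1 (adjusted p = 0.0123) and 2.49 for Hba-a2 (adjusted p = 0.0156). These values rest on few cells. In G12D T3 a single member had 59.1% of its UMIs in 4 globin genes, and it held 953 of the 974 Hbb-bs UMIs of the library's 15 members. WT T2, outside this fit, had a higher Hbb-bt level in members (9140 CPM) than G12D T3 (4520 CPM), with 342 of 348 UMIs in 1 cell. Over all members the median globin share was 0.0785%, while globins made up 0.882 to 9.3% of the UMIs of the other cells of a library. Without the members at 5% or more globin UMIs, 0 genes were called for the Ezh2 effect and 0 for the G12D effect in edgeR, with 23 and 19 at an unadjusted p under 0.05. Hba-a1 and Hba-a2 are near-identical, as are Hbb-bs and Hbb-bt, so reads may be lost or misassigned between the copies.

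**Figure D5:**
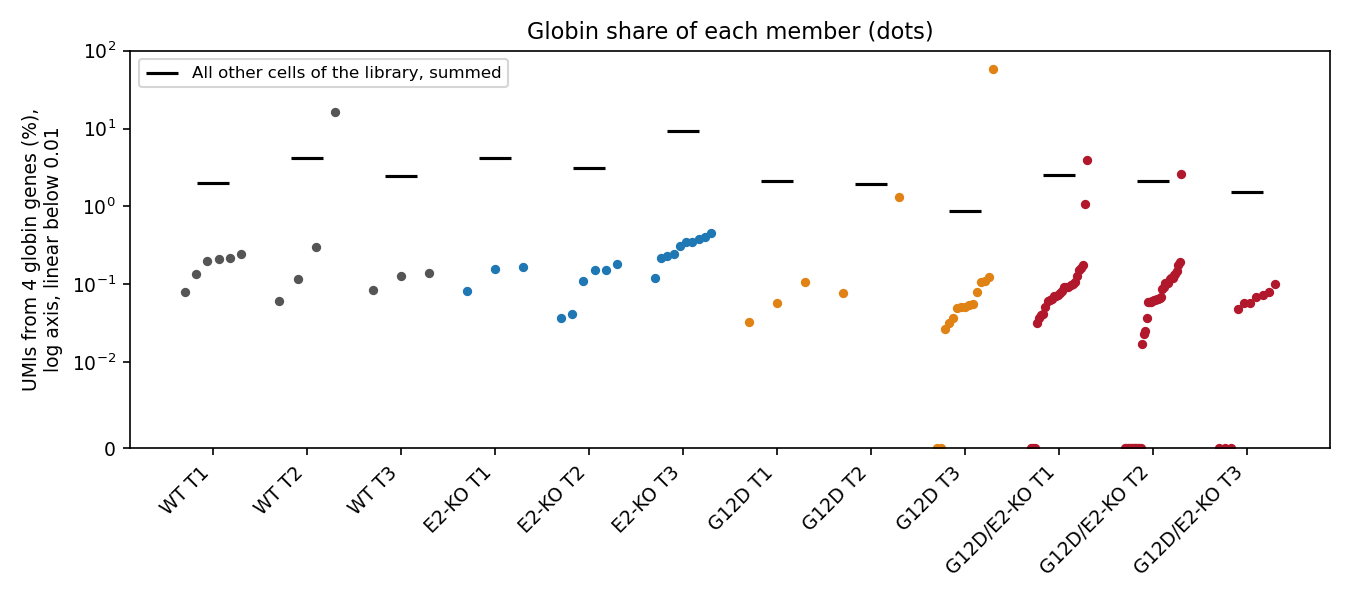
Percent of a member's UMIs from 4 globin genes (y axis, log scale that is linear below 0.01; dots, ordered by value within each of 12 libraries), with the same share in the library's summed other cells (bars). A single G12D T3 member at 59.1% and a WT T2 member at 16.1% stand apart from the median member at 0.0785%.

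Cd74 and H2-Aa, which serve MHC class II presentation, were among the genes called for the interaction, and in the double-mutant libraries their UMIs came mostly from 1 or 2 cells each. Of 143 Cd74 UMIs in the 28 members of G12D/E2-KO T1, 139 were in 1 cell, and of 121 in the 40 members of G12D/E2-KO T2, 120 were in 1 cell. All 68 H2-Aa UMIs of G12D/E2-KO T2 were in 1 cell. In G12D/E2-KO T3, which had the highest Cd74 level of the 7 libraries (3440 CPM), 2 cells held 60 and 40 of the 100 Cd74 UMIs and 21 and 14 of the 35 H2-Aa UMIs. Outside this fit Cd74 was higher still, at 20200 CPM in G12D T2 and 6020 CPM in E2-KO T1. There 1 cell held 113 of 125 and 1 cell all 63 of the Cd74 UMIs. H2-Aa was at 7450 and 1910 CPM in these 2 libraries. Ctsg, a granule protease, had 59 of its 74 UMIs in E2-KO T2 in 1 cell. Over all members 6 had at least 1% of their UMIs in MHC class II genes and 6 had at least 20% in neutrophil granule genes. Fewer such cells and less RNA per cell cannot be told apart in the sums alone. For Cd74 and H2-Aa the counts by cell above place most UMIs of a double-mutant library in 1 or 2 cells.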

How the data were processed

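Cells of 12 c-Kit-enriched bone marrow libraries were analysed. The deposited values are whole UMI counts per gene and cell, which the authors made with Cell Ranger on mm10 for 1 sample at a time, after they removed cells with a high mitochondrial share and cells that Scrublet scored as doublets. Cells of G12D T1 that matched a G12D/E2-KO T1 cell (cosine of square-root UMIs over 0.9) were counted once. Members were found by the rule in the report. The members, gene lists and tests were chosen with earlier results of these data known. Genes named are the rule genes, the 25 with the highest and the 10 with the lowest fold among genes passing the stated limits, list genes by UMI number, and genes called between genotypes. Others were chosen after their values were seen. Intervals are exact binomial or Poisson at 95%. UMIs summed over members per library were tested with edgeR 4.0.16 (TMM, filterByExpr, limma 3.58.1) and DESeq2 1.42.0 in R 4.3.3, with Benjamini-Hochberg adjustment and a threshold of 0.05. On simulated data the edgeR fit of 7 libraries recovered 36.7% of tested genes with a 4-fold Ezh2 effect and 85.8% at 16-fold. With 12 libraries these were 86.4% and 100%. Each also made false calls, so a gene not called in 7 libraries may have changed and a called gene may be false. Shares were tested in Python 3.11.15 with scipy 1.17.1 and numpy 2.4.6. The libraries are the samples, and nothing says that time points of a genotype are repeats of 1 culture or animal, so p-values measure the spread between these libraries. The replicate number of a library is its time point, which the labels give, so pairs are within a time point. Alternatives were other rules, other scaling, no filter, no block and fewer libraries. Sequences are from RefSeq (GRCm38.p6), matched by symbol.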

Additional observations from a re-analysis of the deposited data

Results flagged for a closer look

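For 8 genes the Ezh2 effect in members with NRas G12D differed from the Ezh2 effect without it by the test of that difference (edgeR interaction term, adjusted p under 0.05), on the log2 scale. This fit had 7 libraries, 1 each for WT and G12D, and 1 residual degree of freedom, and no gene was called with all 12 libraries, with no replicate block, in DESeq2 or with the tables as deposited. The difference was 7.95 for Cd74, 11.43 for H2-Aa and 6.46 for Klra4. It was -8.26 for Ctsg, -6.8 for Hba-a1, -8.44 for Hba-a2, -5.25 for Hbb-bs and -6.59 for Hbb-bt. Several of these genes had 0 or few UMIs in some libraries, and fitted values of this size are no bounds. Klra4 had 3 UMIs in G12D/E2-KO T1 and 30 in G12D/E2-KO T2. Cd74 and H2-Aa had their highest levels in members of G12D T2 (20200 and 7450 CPM), a library outside this fit. The part of the single cells given in the report was not tested beyond the alternative without globin-rich members.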

How the results depend on the processing

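For the shares, all 47 alternative values other than leaving out 1 library kept their direction, and those for the share of members among all cells missed the threshold after adjustment. With pairs by time point, 1 effect by itself could not have reached it. Sizes moved: the Ezh2 effect, the G12D effect and the interaction on the share were 0.154, 0.145 and 0.192 points with at least 3 rule genes and 0.168, 0.172 and 0.221 with Ccl5 left out of the rule. On the share of members without Cd3g or Cd3e UMIs, the G12D effect was -11.2 points with Ccl5 left out and -36.4 after thinning, and the interaction 16 points after thinning. All 72 values with 1 library left out kept their direction, and none of them could have passed, since 5 pairs allow no p below 0.0625 and 2 time points none below 0.5. Many of the 72 are repeats, since leaving out either library of a pair removes the same pair. Values on members without Cd3g or Cd3e UMIs, here and above, are a description, since these genes decided membership. The Ezh2 effect on the share of members ranged from 0.159 to 0.396 points, the G12D effect from 0.21 to 0.411 and the interaction from 0.224 to 0.93, and for members without Cd3g or Cd3e UMIs the ranges were -42.2 to -24.8, -25.5 to -14.8 and 12.9 to 43.3 points. With no replicate block, 6 libraries against 6, the Ezh2 effect on members without these UMIs was -32.4 points and the G12D effect -21.3, and on the share of members exact p was 0.141 and 0.117. The counts of called genes (1, 3 and 8 for the Ezh2 effect, the G12D effect and the interaction) depended on the setting. With DESeq2, with no replicate block (pairing by time point left out), with the tables as deposited, and with all 12 libraries with or without the block, each count was 0, with 8, 10 and 18 genes at an unadjusted p under 0.05 in DESeq2, 27, 20 and 26 with no block, 39, 52 and 67 with the tables as deposited, and 10, 17 and 16 with all 12 libraries. With no filter the counts were 0, 3 and 5, in NK-gene members 0, 0 and 5, and without members at 5% or more globin UMIs 0, 0 and 4. With all 12 libraries and 1 left out in turn the counts ranged from 0 to 1, 0 to 0 and 0 to 1. The counts with DESeq2 scaling factors in edgeR were 1, 3 and 8. The alternatives on all 12 libraries, NK-gene members and globin-rich members were chosen after seeing the data. Not run were the gene tests with 1 of 7 libraries left out, with 3 rule genes and with 10 members per library, since no residual degrees of freedom or no WT library remained. The cause of the other changes was not tested. Depth limits the members: 2 to 40 cells per library.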
